A study of Mus musculus and Homo sapiens with 59 samples.

Results

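The untreated MLKL line of LLC, a mouse lung carcinoma line, was compared with untreated parental LLC across all genes, to see how cells that carried the construct differed before any dimerizer was given. The members were 4 of the 59 libraries of the series, taken by their labels: 2 of LLC cells with hMLKL1–181-2Fv (called MLKL LLC here) and 2 of LLC cells with no construct (parental LLC). The construct joins an amino-terminal piece of human MLKL to a pair of Fv domains, which are engineered copies of the drug-binding protein FKBP12. All cells were kept in DMEM, and polyadenylated RNA was sequenced. The groups set beside them were untreated LLC with mGSDMD1-276-HBD (GSDMD LLC, a piece of mouse gasdermin D with a hormone-binding domain), MLKL LLC given the dimerizer AP20187 at 100 nM for 1 h, parental LLC given 4OHT at 50 nM for 2.5 h, the untreated LLC labelled with no construct in the digitonin experiment, and untreated NIH3T3 fibroblasts with hMLKL1–181-2Fv or with no construct. Each of these groups held 2 libraries. The labels do not say whether the MLKL line was a single clone or a pool, nor whether the 2 libraries of a group came from separate cultures. A p-value here therefore reflects the scatter of these libraries, which may be technical, and clone, batch and construct cannot be told apart.

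MLKL is the last protein of necroptosis, a lytic form of cell death. Phosphorylation by RIPK3 lets MLKL assemble at the plasma membrane and permeabilize it. A piece of MLKL that holds the membrane-binding bundle can be assembled on demand by fusing it to Fv domains and adding a dimerizer, so that without the drug the protein is meant to be idle.

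Levels are in TPM (transcript abundance scaled to a fixed library total), and fold changes are taken on log2(TPM + 1), a scale on which changes of low genes look smaller than they are. The number in parentheses after a gene is such a log2 fold change, MLKL LLC minus parental LLC. A gene was tested where at least 2 of the 4 libraries held 1 TPM or more, and called at a Benjamini-Hochberg adjusted p under 0.05 (limma). TPM keep no depth, so the depth is unknown. Between 10822 and 11512 genes reached 1 TPM in the libraries used here, and replicates correlated at 0.989 to 0.993 across genes, which are not independent replicates. LLC libraries held little of the epithelial genes Epcam and Cdh1, which averaged 0.0150 and 0.0338 TPM in MLKL LLC and 0 TPM each in parental LLC. The lung surfactant genes Sftpb and Sftpc and the leukocyte and fibroblast genes Ptprc, Adgre1 and Thy1 were listed at 0 in both groups. Other markers of these cell types were present. In MLKL LLC and parental LLC, the fibroblast genes Col3a1 and Dcn averaged 235 and 260 TPM and 2.61 and 8.10 TPM. The leukocyte genes Cd68 and Cd14 averaged 7.74 and 3.73 TPM and 16.8 and 21.8 TPM, and the lung gene Foxa2 15.5 and 12.2 TPM. The keratin genes Krt8 and Krt18 and the mesenchymal gene Vim were high in both, with Vim at 4106 and 4149 TPM in MLKL LLC and 3222 and 3151 TPM in parental LLC.

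The libraries labelled untreated with no construct in the digitonin experiment went against that label. Gsdmd stood at 333 and 337 TPM and Esr1, whose hormone-binding domain is used in such fusions, at 32.7 and 33.0 TPM in them. In GSDMD LLC these were 376 and 377 TPM and 22.5 and 21.9 TPM, while in parental LLC they were 22.6 and 22.6 TPM and 1.28 and 1.55 TPM. Parental LLC below means the 2 libraries outside that experiment, and values against the digitonin libraries are given apart. Between these 2 groups labelled with no construct, 2937 genes were higher and 4537 lower of 11199 in the digitonin libraries (66.7%), a split that became 3686 higher and 3779 lower after quantile normalization. Parental LLC given 4OHT differed little from untreated parental LLC, with 96 of 11110 genes called (0.864%).

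The human MLKL piece is not a row of the mouse gene table, so the construct was not measured directly. The mouse gene Mlkl stood at 94.3 and 95.7 TPM in MLKL LLC and 106 and 106 TPM in parental LLC (log2 fold change -0.15, SE 0.039, adjusted p 0.00557), and Fkbp1a, which encodes FKBP12, at 581 and 567 TPM in MLKL LLC and 508 and 514 TPM in parental LLC (log2 fold change 0.17, SE 0.027, adjusted p 2.33e-04). Ripk3 was near 0, at 0.111 and 0.235 TPM in MLKL LLC and 0 and 0 in parental LLC, and was not tested. The line responded to its dimerizer: Cxcl1 reached 229 and 228 TPM with AP20187, against 8.76 and 7.92 TPM without it, and Egr1 reached 41.9 and 39.0 TPM with AP20187, against 4.33 and 3.80 TPM without it.

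Of 11236 genes tested, 3020 were higher (26.9%) and 3462 lower (30.8%) in MLKL LLC than in parental LLC, 57.7% in all. Most differences were small: 177 genes were at least 2-fold higher and 120 at least 2-fold lower, 1.58% and 1.07% of those tested. The median log2 fold change of all genes tested was -0.024. With 5 or more TPM in the higher group, 1166 called genes of the 11236 tested had both MLKL libraries above all 4 libraries of parental LLC and of the untreated digitonin experiment. In 853 both lay below all 4. The digitonin libraries among these 4 are those that went against their label. The count of calls lay between 5268 and 5627 when any of the 4 libraries was left out.

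**Figure D1:**
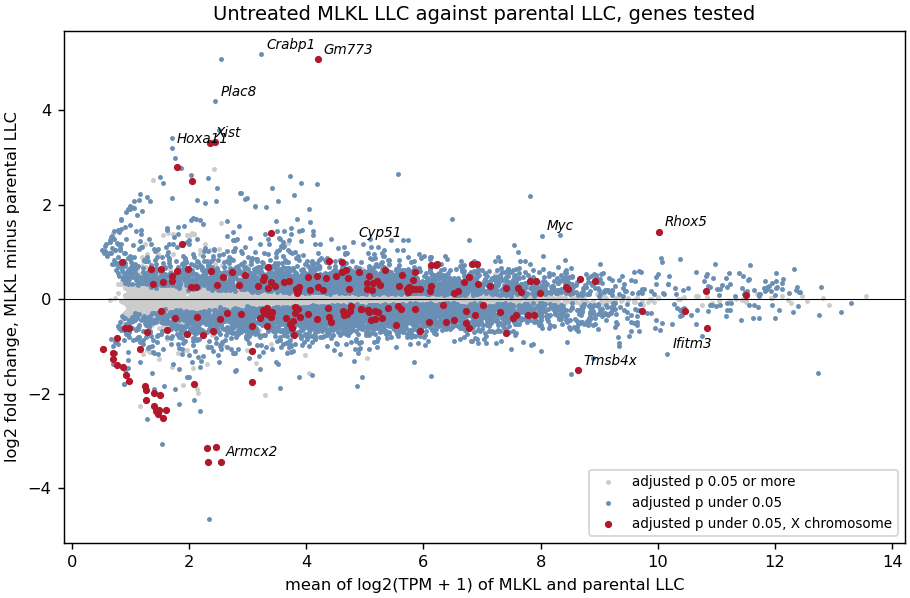
Difference between untreated MLKL LLC and parental LLC (y axis, log2 fold change) against the mean level of both (x axis, log2(TPM + 1)) for the 11236 genes tested, 1 point a gene, with called genes of the X chromosome in red. Most called genes lie within 1 log2 unit of 0, and a group of X-linked genes lies far below it.

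The largest rises included genes that parental LLC barely expressed. Crabp1 (chr9:54764748-54773110), which encodes a cytoplasmic retinoic acid binding protein, had 53.8 and 54.5 TPM in MLKL LLC and 1.01 and 0.159 TPM in parental LLC (log2 fold change 5.17, SE 0.19, adjusted p 2.61e-09). Gm773 (chrX:56189827-56212881), an X-linked gene with no established role, had 104 and 105 TPM in MLKL LLC and 1.69 and 2.67 TPM in parental LLC (log2 fold change 5.07, SE 0.14, adjusted p 3.20e-10). Both MLKL libraries lay far above both parental libraries for these genes, but so did GSDMD LLC, with 41.3 and 45.4 TPM of Crabp1 and 84.3 and 80.4 TPM of Gm773. The untreated libraries of the digitonin experiment were as high, with 69.0 and 72.8 TPM of Crabp1 and 100.1 and 84.7 TPM of Gm773, and against them the log2 fold change of Crabp1 was -0.38.

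Plac8 (chr5:100553725-100572245), a small cysteine-rich protein gene, was high in MLKL LLC alone among the untreated LLC groups. It had 22.3 and 21.3 TPM in MLKL LLC and 0 and 0.578 TPM in parental LLC (log2 fold change 4.18, SE 0.16, adjusted p 3.82e-09), and was listed at 0 in GSDMD LLC and in the untreated libraries of the digitonin experiment. A similar order held for Bgn, which encodes the matrix proteoglycan biglycan, with 8.85 and 8.76 TPM in MLKL LLC and 0.591 and 0.901 TPM in parental LLC, beside 1.49 and 1.07 TPM in GSDMD LLC (2.49). It also held for the imprinted, retrotransposon-derived gene Peg10, with 20.9 and 21.9 TPM in MLKL LLC and 6.62 and 7.24 TPM in parental LLC, beside 4.86 and 5.40 TPM in GSDMD LLC (1.5). Basp1, a gene for a membrane-bound signalling protein, had 6.21 and 5.41 TPM in MLKL LLC and 1.79 and 1.85 TPM in parental LLC (1.27), and 0.0535 and 0 TPM in GSDMD LLC. Neat1, the RNA around which nuclear paraspeckles form, had 170.0 and 165 TPM in MLKL LLC and 69.1 and 71.6 TPM in parental LLC (1.24), with 48.1 and 47.6 TPM in GSDMD LLC and 147 and 151 TPM in the untreated libraries of the digitonin experiment. In direct tests of MLKL LLC against GSDMD LLC the log2 fold changes were 4.51 for Plac8, 2.11 for Bgn, 1.87 for Peg10, 2.73 for Basp1 and 1.79 for Neat1, with adjusted p from 1.13e-11 for Neat1 to 5.15e-08 for Bgn (limma).

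Some other leading rises were set beside GSDMD LLC as well. The homeobox gene Hoxa11 had 9.23 and 8.41 TPM in MLKL LLC and 0.112 and 0.0457 TPM in parental LLC (3.19), beside 5.94 and 4.89 TPM in GSDMD LLC. Its antisense partner Hoxa11os, which overlaps it on chromosome 6, had 6.17 and 5.77 TPM in MLKL LLC and 0.115 and 0.204 TPM in parental LLC (2.59), and use of strand in the counting is not given in the sources used here, so their reads cannot be told apart. Serpine2, a secreted protease inhibitor gene, had 8.17 and 8.93 TPM in MLKL LLC and 0.203 and 0.206 TPM in parental LLC (2.99), beside 6.04 and 6.23 TPM in GSDMD LLC. Arhgdib had 26.8 and 30.6 TPM in MLKL LLC and 5.37 and 5.46 TPM in parental LLC (2.21), beside 15.5 and 16.3 TPM in GSDMD LLC. The collagen gene Col8a1 had 14.9 and 15.3 TPM in MLKL LLC and 2.83 and 2.63 TPM in parental LLC (2.11). It stood at 10.3 and 10.9 TPM in GSDMD LLC. Further rises of the rule were the cornified envelope gene Sprr1a (2.45), the microtubule stabilizer gene Map6 (1.67) and the zinc finger gene Zfp580 (1.66). Lgalsl (1.54), the histone gene Hist3h2a (1.35), which has near-identical copies and is uncertain, and the actin regulator gene Enah (1.26) also met the rule. Enah had 14.7 and 14.7 TPM in MLKL LLC, 5.63 and 5.48 TPM in parental LLC and 12.3 and 11.8 TPM in GSDMD LLC. Against the untreated libraries of the digitonin experiment Enah was not called (0.11).

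**Figure D2:**
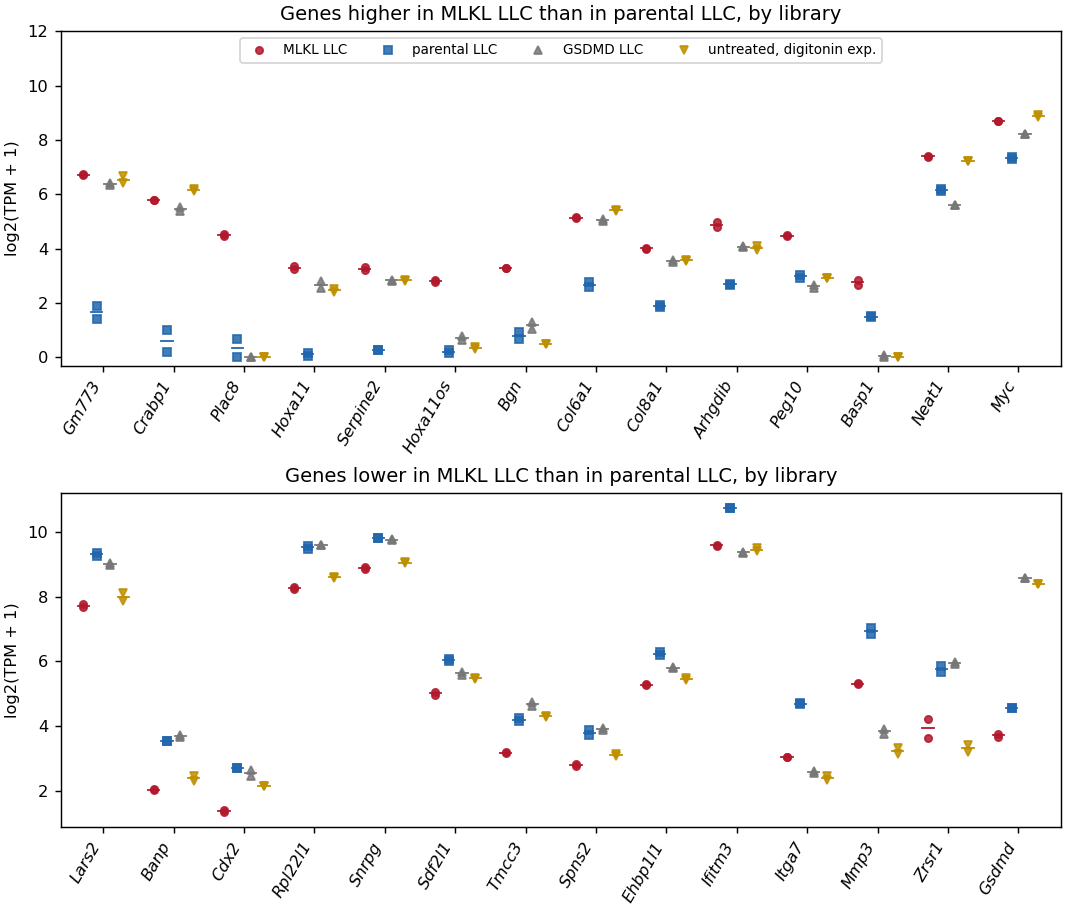
Level of leading genes in log2(TPM + 1) (y axis) in each untreated LLC library, by group, with 1 point a library and a short line at the mean of 2. Genes of the upper panel are higher, and of the lower panel lower, in MLKL LLC than in parental LLC; Plac8 and Bgn stand highest in MLKL LLC among the 4 groups, while Gm773 and Crabp1 are low in parental LLC only.

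Falls that met the same rule, with both MLKL libraries below all 4 others, were shallower. Banp (chr8:121949750-122029258), which encodes a DNA-binding protein of CpG-rich promoters, had 3.18 and 3.06 TPM in MLKL LLC and 10.7 and 10.6 TPM in parental LLC (log2 fold change -1.50, SE 0.077, adjusted p 2.79e-08). The intestinal homeobox gene Cdx2 had 1.65 and 1.58 TPM in MLKL LLC and 5.51 and 5.62 TPM in parental LLC (-1.33). Rpl22l1, a paralogue of the ribosomal protein gene Rpl22, had 313 and 303 TPM in MLKL LLC and 711 and 761 TPM in parental LLC (-1.25). Snrpg, a core protein gene of the spliceosome, had 479.5 and 463 TPM in MLKL LLC and 891 and 894 TPM in parental LLC (-0.92). In GSDMD LLC these 4 genes stood at 12.4 and 11.8, 4.51 and 5.36, 772 and 764 and 863 and 866 TPM, so that MLKL LLC was also the lowest there.

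The mitochondrial leucyl-tRNA synthetase gene Lars2 had 205 and 215 TPM in MLKL LLC and 653 and 613 TPM in parental LLC (-1.58). The small RNA gene Mir6236 fell by a like amount (-1.57). Genes for small and ribosomal RNA also held a smaller share of TPM in MLKL LLC, 0.733% and 0.729%, than in parental LLC, 1.54% and 1.39%. Whether reads of such RNA were counted in Lars2 or Mir6236 was not tested. The sphingosine-1-phosphate exporter gene Spns2 (-1.0), the calcium/calmodulin kinase kinase gene Camkk1 (-1.14), the glycosyltransferase genes Galnt18 (-1.19) and B3gnt3 (-1.05), the endosomal tether gene Stard3nl (-1.07), the membrane protein gene Tmcc3 (-1.02), the endoplasmic reticulum gene Sdf2l1 (-1.02), the trafficking gene Ehbp1l1 (-0.96), Hint3 (-0.97) and the nicotinamide riboside kinase gene Nmrk1 (-0.96) were further falls of the rule. B3gnt3 stood at 20.6 and 19 TPM in MLKL LLC and 41.9 and 42.3 TPM in parental LLC, but GSDMD LLC held as little, 21.8 and 19.5 TPM. Against the untreated libraries of the digitonin experiment Galnt18 (-0.13) and Camkk1 (-0.15) were not called. Banp (-0.35), B3gnt3 (-0.22) and Ehbp1l1 (-0.17) were called there, with smaller falls than against parental LLC.

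The X chromosome held a set of deep falls. Of 342 X-linked genes tested, 27 were called and at least 2-fold lower in MLKL LLC (7.89%), while on each of the 19 autosomes the share was between 0.160% and 1.84%, and 1.07% over all genes. Against the untreated libraries of the digitonin experiment 1 X-linked gene was, and with a filter of 5 TPM 11 were against parental LLC. Over all 342 genes, 95 were higher and 104 lower, with a median of -0.019. The 27 genes were spread from 8.89 to 167 Mb of the chromosome. Because they were picked by this contrast, what follows on their levels is a description.

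Armcx2, an armadillo-repeat gene, had 0.634 and 0.895 TPM in MLKL LLC and 17.6 and 18.6 TPM in parental LLC (-3.44). Rnf128, a gene for a membrane ubiquitin ligase, had 0.631 and 0.417 TPM in MLKL LLC and 15.8 and 15.3 TPM in parental LLC (-3.44). Maged2, of the MAGE family, had 0.813 and 0.500 TPM in MLKL LLC and 13.0 and 14.4 TPM in parental LLC (-3.16). Both MLKL libraries held a small remainder of each, and no library of either group overlapped the other group. Amot, which encodes the junctional protein angiomotin that binds YAP, had 0.742 and 0.994 TPM in MLKL LLC and 15.5 and 15.2 TPM in parental LLC (-3.13). The membrane protein genes Tmem47 (-2.51) and Tspan6 (-2.37) had 0.159 and 0.303 TPM and 0.238 and 0.143 TPM in MLKL LLC, and 6.16 and 5.84 TPM and 5.62 and 4.70 TPM in parental LLC. Tmsb4x, the gene for the actin-sequestering peptide thymosin beta-4, was the most abundant of the 27, with 235 and 234 TPM in MLKL LLC and 640.3 and 698 TPM in parental LLC (-1.51).

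Over the 27 genes, the mean level in MLKL LLC was a median of 4.78% of that in parental LLC, with quartiles of 3.75% and 7.61%, and 22 genes were under 15%. The corresponding median, which shares the parental libraries, was 0.262% in GSDMD LLC and 0.102% in the untreated libraries of the digitonin experiment. Counted by library, 26 genes were above 0 in both MLKL libraries, and 24 were higher in both MLKL libraries than in both GSDMD libraries. The share of all genes for which this held was not counted. Most of these values were near the floor, and 22 genes averaged under 0.1 TPM in GSDMD LLC. Only 4 of the 27 were tested against GSDMD LLC. Of these 2 were higher and 0 lower, beside 32.8% and 26.4% of all genes. With the dimerizer MLKL LLC had a median of 0.247 TPM against 0.233 TPM without it, beside 4.78 TPM in untreated parental LLC and 5.69 TPM in parental LLC given 4OHT. In bulk RNA, fewer cells that express a gene and less RNA per cell cannot be told apart. At the edge of the 2-fold limit, Rp2 was inside (-1.10) with 4.54 and 4.91 TPM in MLKL LLC and 11.5 and 11.1 TPM in parental LLC, and Rps6ka6, which encodes the kinase RSK4, was outside (-0.76) with 9.51 and 9.83 TPM in MLKL LLC and 16.4 and 17.9 TPM in parental LLC.

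The promoters of these genes ranged widely in CG content. Windows from 250 bases before to 50 after the start were taken from RefSeq (GRCm38.p6), and 23 of the 27 genes had one. The number of CG pairs ran from 4 to 44 with a median of 14, counting the richest window of a gene, beside a median of 19 in 270 other X-linked genes tested and 23 in 8500 genes tested on all chromosomes. Rnf128 and Armcx2, which have nearly the same log2 fold change, are shown because they lie far apart in this count, with 26 and 4 CG pairs, here in capitals; the first window is chrX:139610370-139610669 on the plus strand and the second chrX:134809172-134809471 on the minus strand.
Rnf128: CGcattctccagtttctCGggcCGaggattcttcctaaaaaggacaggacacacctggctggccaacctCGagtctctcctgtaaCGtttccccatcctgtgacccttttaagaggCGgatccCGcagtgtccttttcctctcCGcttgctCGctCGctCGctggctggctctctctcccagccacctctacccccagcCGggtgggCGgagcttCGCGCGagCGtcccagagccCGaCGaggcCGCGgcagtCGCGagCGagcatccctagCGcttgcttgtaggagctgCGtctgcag
Armcx2: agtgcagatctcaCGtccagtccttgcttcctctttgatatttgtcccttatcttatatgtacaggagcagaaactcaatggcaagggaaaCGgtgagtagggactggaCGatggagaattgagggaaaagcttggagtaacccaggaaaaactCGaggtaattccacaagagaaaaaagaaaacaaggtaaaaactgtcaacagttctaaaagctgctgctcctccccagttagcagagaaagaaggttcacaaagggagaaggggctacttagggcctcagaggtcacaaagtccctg
The count is a description of these letters, and methylation was not measured.

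In the other direction, 8 of the 342 X-linked genes were called and at least 2-fold higher, against 1.58% of all genes. Xist, the RNA that coats an inactive X chromosome in female cells, had 14.9 and 15.4 TPM in MLKL LLC and 0.631 and 0.630 TPM in parental LLC (log2 fold change 3.31, SE 0.059, adjusted p 1.02e-11), beside 27.4 and 25.9 TPM in GSDMD LLC and 19.3 and 17.3 TPM in the untreated libraries of the digitonin experiment. Rhox5, an X-linked homeobox gene of reproductive tissue, had 1698 and 1699.6 TPM in MLKL LLC and 642 and 622 TPM in parental LLC (1.43), beside 1312 and 1307 TPM in GSDMD LLC. Esx1, a placental homeobox gene, had 16.4 and 16.3 TPM in MLKL LLC and 0.738 and 0.716 TPM in parental LLC (3.33). The Y-linked genes Ddx3y, Uty and Eif2s3y were all under 0.2 TPM on average in both groups and were not tested.

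**Figure D3:**
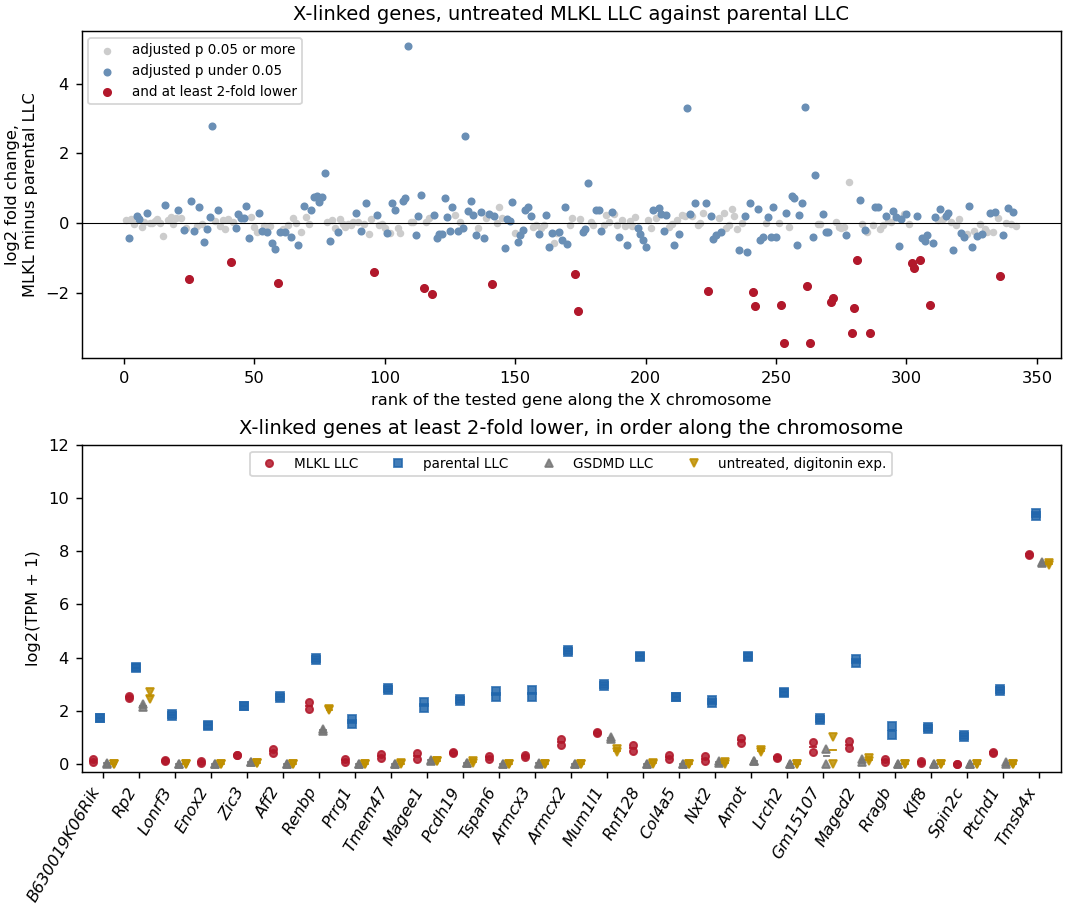
X-linked genes in untreated MLKL LLC and parental LLC. The upper panel gives the log2 fold change (y axis) of the 342 genes tested in order along the chromosome (x axis, rank); the lower panel gives log2(TPM + 1) of the 27 genes at least 2-fold lower in each library of 4 untreated LLC groups, in which MLKL LLC lies just above 0 for most and parental LLC well above.

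Genes of cholesterol synthesis and uptake rose together. Of 22 tested, 20 were higher and 0 lower, against 26.9% higher and 30.8% lower over all genes, and their median log2 fold change was 0.58 beside -0.024 for all genes. These genes make sterols from acetyl-CoA and take up lipoprotein, and are controlled by SREBP2, which is cut and sent to the nucleus when membrane sterol is low. The lanosterol demethylase gene Cyp51 had 41.3 and 41.1 TPM in MLKL LLC and 16.6 and 18.2 TPM in parental LLC (1.20, SE 0.058, adjusted p 1.87e-08). The HMG-CoA synthase gene Hmgcs1 had 57.8 and 55.5 TPM in MLKL LLC and 26.7 and 27.7 TPM in parental LLC (1.03). Insig1, which retains the SREBP machinery in the endoplasmic reticulum, had 46.0 and 45.5 TPM in MLKL LLC and 22.4 and 23 TPM in parental LLC (0.98), the squalene epoxidase gene Sqle 85.5 and 88.4 TPM in MLKL LLC and 43.8 and 47.6 TPM in parental LLC (0.91), and Hsd17b7, a sterol ketoreductase gene, 6.85 and 6.93 TPM in MLKL LLC and 3.22 and 3.02 TPM in parental LLC (0.94). These 5 genes were picked with their values in this contrast known, so the lack of overlap between their MLKL and parental libraries is only a description. The genes that did not pass were Mvk (log2 fold change 0.19) and Sc5d (0.0014). All 22 were higher in MLKL LLC than in GSDMD LLC, where 32.8% of all genes were, and 16 were higher and 0 lower than in the untreated libraries of the digitonin experiment, where 28.9% of all genes were higher.

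Hmgcs1 is shown because it was the 1 gene, of 15 cholesterol genes with a promoter window, that held the letters of a classical sterol regulatory element, TCACNCCAC, on either strand. The letters were in 115 of 8500 genes tested (1.35%) and in 1.24% of all 32851 windows. They lie 137 bases before the start at chr13:119690101-119690400 on the plus strand and are in capitals.
Hmgcs1: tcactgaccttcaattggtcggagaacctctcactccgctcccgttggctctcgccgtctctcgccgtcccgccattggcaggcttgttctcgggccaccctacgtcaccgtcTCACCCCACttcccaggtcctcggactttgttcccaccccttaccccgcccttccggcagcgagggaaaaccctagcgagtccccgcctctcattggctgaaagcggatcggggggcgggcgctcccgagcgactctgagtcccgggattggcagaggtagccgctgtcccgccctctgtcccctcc
No match in the other 14 says only that these letters are not in those windows.

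Of 12 fatty acid genes, 9 were higher, 0 lower and 3 did not pass, with a median of 0.19, beside 26.9% higher and 30.8% lower over all genes. The desaturase genes Scd2 (456 and 459.6 TPM in MLKL LLC and 284 and 298 TPM in parental LLC, 0.65) and Fads2 (83.4 and 82.7 TPM in MLKL LLC and 45.0 and 40.5 TPM in parental LLC, 0.94) were among the higher ones. This list was split against the untreated libraries of the digitonin experiment, with 6 higher and 5 lower, beside 28.9% higher and 16% lower over all genes.

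Cytokine and immediate early genes leaned higher before any dimerizer. Of 13 cytokine and chemokine genes tested, 9 were higher and 3 lower with a median of 0.37, and of 22 immediate early genes, 12 were higher and 1 lower with a median of 0.21, beside 26.9% higher and 30.8% lower over all genes. The monocyte chemokine genes Ccl7 (1.62) and Ccl2 (0.37) had 32.5 and 24.4 TPM and 172 and 181 TPM in MLKL LLC, and 8.71 and 8.21 TPM and 133 and 138 TPM in parental LLC. The macrophage growth factor gene Csf1 had 125 and 124 TPM in MLKL LLC and 91.8 and 88.8 TPM in parental LLC (0.46), and Il11, of the interleukin-6 family, 14.5 and 14.3 TPM in MLKL LLC and 8.66 and 8.71 TPM in parental LLC (0.67). The neutrophil chemokine gene Cxcl1 had 8.76 and 7.92 TPM in MLKL LLC and 5.71 and 4.78 TPM in parental LLC (0.58, SE 0.10, adjusted p 3.26e-04), and Lif, another interleukin-6 family gene, 5.02 and 4.43 TPM in MLKL LLC and 3.45 and 2.89 TPM in parental LLC (0.46). Il6 was listed at 0 in all 4 libraries and Fos was under 1 TPM in them. Against the untreated libraries of the digitonin experiment, Cxcl1 (-0.44) and Ccl2 (-0.25) had the reverse sign and Lif (0.86) did not. There the cytokine list had 6 higher and 2 lower (median 0.22) and the immediate early list 13 higher and 4 lower (median 0.34). Over all genes, 28.9% were higher and 16% lower in that comparison.

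Myc, a growth regulator and early response gene, rose, with 410.0 and 413 TPM in MLKL LLC and 166 and 157 TPM in parental LLC (1.34, SE 0.036, adjusted p 2.26e-10). The AP-1 gene Fosl1 had 366 and 353 TPM in MLKL LLC and 197 and 187 TPM in parental LLC (0.90), Ier3, a survival gene of the early response, 209 and 209 TPM in MLKL LLC and 116 and 109.9 TPM in parental LLC (0.88), and the zinc finger gene Egr1 4.33 and 3.80 TPM in MLKL LLC and 1.19 and 1.53 TPM in parental LLC (1.10). Zfp36, an mRNA decay factor gene, followed (0.80). Nfkbia, the inhibitor made in response to NF-kB, went the other way, with 43.2 and 43.7 TPM in MLKL LLC and 54.3 and 53.3 TPM in parental LLC (-0.30, adjusted p 7.42e-05). NF-kB targets as a list had 11 of 19 higher and 3 lower, beside 26.9% higher and 30.8% lower over all genes. Against the untreated libraries of the digitonin experiment they had 5 higher and 3 lower. That was near the shares of all genes there, 28.9% higher and 16% lower. Myc (-0.19) and Nfkbia (0.32) also had the reverse sign against the untreated libraries of the digitonin experiment.

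The 50 genes that rose most with AP20187 in NIH3T3 MLKL cells were read in LLC as a list drawn from other libraries. In untreated MLKL LLC 45 of them were tested, and 23 were higher and 4 lower, 51.1% and 8.89% of those tested, beside 26.9% higher and 30.8% lower over all genes. Their median was 0.21, and that of all genes -0.024. Given AP20187, MLKL LLC had 40 of 48 tested higher than without it, with a median of 0.82, beside 5.48% of all genes; that comparison uses the same untreated MLKL libraries. The other 18 did not pass in untreated cells.

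Genes of interferon response, antigen presentation and cell death machinery leaned lower than in parental LLC, where 26.9% of all genes were higher and 30.8% lower. Of 11 interferon stimulated genes, 0 were higher and 8 lower, with a median of -0.51. Ifitm3, a membrane protein gene that restricts virus entry, had 771 and 759 TPM in MLKL LLC and 1706 and 1702 TPM in parental LLC (-1.15, SE 0.045, adjusted p 3.97e-09), its relative Ifitm1 133 and 135 TPM in MLKL LLC and 212 and 199 TPM in parental LLC (-0.61), and Ifi35 (-0.54) and the RNA sensor gene Ddx58 (-0.59) were lower too. Of 14 antigen presentation genes 9 were lower and 2 higher: the class I gene H2-D1 had 160.4 and 168 TPM in MLKL LLC and 241 and 233 TPM in parental LLC (-0.53), while H2-K1 had 20.7 and 20.1 TPM in MLKL LLC and 8.0 and 6.53 TPM in parental LLC (1.38). These class I genes are near-identical and may exchange reads. The peptide loading genes Tapbp (-0.54) and Pdia3 (-0.48) were lower. Of 16 necroptosis and pyroptosis genes, 0 were higher and 11 lower, with a median of -0.25; they included Gsdmd, with 11.8 and 12.6 TPM in MLKL LLC and 22.6 and 22.6 TPM in parental LLC (-0.83), the deubiquitinase gene Cyld (-0.39) and the DNA sensor gene Aim2 (-0.34).

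These lists were also set against the other lines. In MLKL LLC against GSDMD LLC, where 32.8% of all genes were higher and 26.4% lower, the interferon list had 3 higher and 3 lower of 11 (median 0.043), the antigen presentation list 5 higher and 4 lower of 14, and the necroptosis and pyroptosis list 6 higher and 2 lower of 16 (median 0.071). Ifitm3 stood at 649 and 662 TPM in GSDMD LLC. Set against the untreated libraries of the digitonin experiment, where 28.9% of all genes were higher and 16% lower, the interferon list had 4 higher and 1 lower of 11, the antigen presentation list 1 higher and 4 lower of 15, and the necroptosis and pyroptosis list 6 higher and 4 lower of 16 (median 0.16). The log2 fold change of Ifitm3 there was 0.13.

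Genes of cell division and respiration leaned lower than in parental LLC. Of 34 replication and mitosis genes 22 were lower and 5 higher, with a median of -0.27, beside 26.9% higher and 30.8% lower over all genes. The list turned round against the untreated libraries of the digitonin experiment, with 17 higher and 4 lower (median 0.098), and had 5 higher and 16 lower against GSDMD LLC. Over all genes, 28.9% were higher and 16% lower against those digitonin libraries, and 32.8% higher and 26.4% lower against GSDMD LLC. The mitotic cyclin gene Ccnb1 had 145 and 144 TPM in MLKL LLC and 245 and 247 TPM in parental LLC (-0.76). The checkpoint kinase gene Bub1b had 70.7 and 73.4 TPM in MLKL LLC and 110.1 and 107 TPM in parental LLC (-0.58). The centromere histone gene Cenpa (-0.68) and the ubiquitin-conjugating enzyme gene Ube2c (-0.53) were lower as well. Of 37 oxidative phosphorylation genes 22 were lower and 3 higher, with a median of -0.18, among them Ndufa4 (453 and 457 TPM in MLKL LLC and 901 and 915 TPM in parental LLC, -0.99) the complex I gene Ndufs3 (-0.70), the cytochrome oxidase gene Cox7a2 (-0.46) and the complex II gene Sdhd (-0.56). Against GSDMD LLC the oxidative phosphorylation list had 9 higher and 18 lower, while against the untreated libraries of the digitonin experiment it had 13 higher and 3 lower.

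Stress lists were mixed against parental LLC, where 26.9% of all genes were higher and 30.8% lower. Against GSDMD LLC 32.8% of all genes were higher and 26.4% lower, and against the untreated libraries of the digitonin experiment 28.9% and 16%. Of 24 genes of the unfolded protein and integrated stress response, 8 were higher and 8 lower, but 3 were higher and 17 lower against the untreated libraries of the digitonin experiment (median -0.26). The chaperone gene Hspa5 had 633 and 660.3 TPM in MLKL LLC and 999 and 1060.5 TPM in parental LLC (-0.67), and Pdia4 (-0.52) and the transcription factor gene Xbp1 (-0.78) were lower. Among 16 metal and oxidative stress genes, 10 were higher and 3 lower. The metallothionein gene Mt2 had 1474 and 1387 TPM in MLKL LLC and 813 and 762 TPM in parental LLC (0.86) and the redox regulator gene Txnip 33.4 and 34.9 TPM in MLKL LLC and 16.8 and 17.5 TPM in parental LLC (0.95), whereas the quinone reductase gene Nqo1 (-0.85) and the peroxiredoxin gene Prdx1 (-0.68) were lower. Ribosomal protein genes had 21 of 49 higher and 10 lower, with a median of 0.058. They had 12 higher and 26 lower against GSDMD LLC, and 2 higher and 22 lower against the untreated libraries of the digitonin experiment. Of 16 histone genes, whose near-identical copies make counts uncertain, 6 were higher and 1 lower, with a median of 0.55. Of 28 membrane repair and ESCRT genes, which reseal and shed damaged plasma membrane, 6 were higher and 14 lower, with a median of -0.17. Against GSDMD LLC this list had 16 higher and 4 lower of 27. Against the untreated libraries of the digitonin experiment it had 10 higher and 4 lower of 27, with a median of 0.0087 beside 0.055 over all genes.

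**Figure D4:**
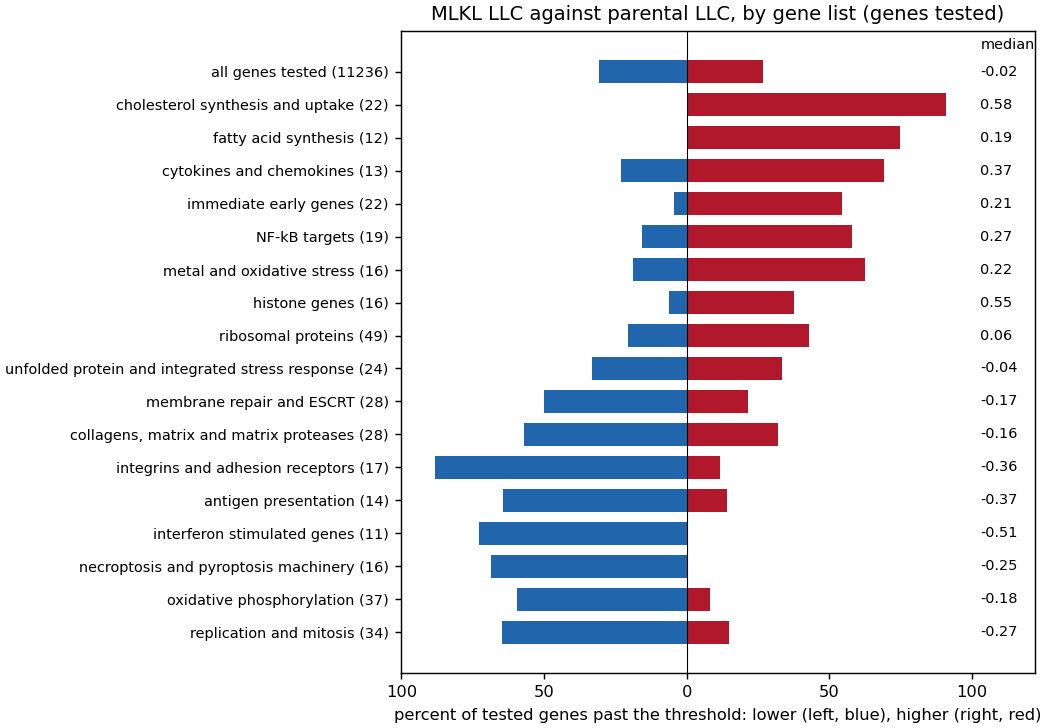
Share of tested genes called lower (left, blue) and higher (right, red) in untreated MLKL LLC than in parental LLC, in percent, for 17 gene lists and for all genes tested, with the number tested in parentheses and the median log2 fold change at the right. Cholesterol and fatty acid genes lie on the higher side, and interferon, necroptosis, integrin and replication genes on the lower side.

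Surface and matrix genes changed in both directions. Of 17 integrins and adhesion receptors 15 were lower and 2 higher, with a median of -0.36, beside 26.9% higher and 30.8% lower over all genes. The same list had 9 higher and 5 lower of 17 against GSDMD LLC (median 0.22), and 8 higher and 6 lower of 18 against the untreated libraries of the digitonin experiment (median 0.061). Over all genes, 32.8% were higher and 26.4% lower against GSDMD LLC, and 28.9% higher and 16% lower against those digitonin libraries. The laminin receptor gene Itga7 had 7.35 and 7.32 TPM in MLKL LLC and 25.3 and 24.7 TPM in parental LLC (-1.64). Of 28 collagen, matrix and protease genes, 9 were higher and 16 lower. That list had 13 higher and 8 lower of 26 against GSDMD LLC, and 14 higher and 6 lower of 26 against the untreated libraries of the digitonin experiment. Col6a1 and Col6a2, which encode chains of the same collagen, had 33.8 and 34.5 TPM and 14.9 and 15.3 TPM in MLKL LLC, and 5.83 and 5.0 TPM and 2.13 and 2.65 TPM in parental LLC (2.46 and 2.25). The lysyl oxidase gene Loxl2 had 11.3 and 11.8 TPM in MLKL LLC and 1.48 and 1.45 TPM in parental LLC (2.35). The stromelysin gene Mmp3 fell, with 38.5 and 39.3 TPM in MLKL LLC and 113 and 131 TPM in parental LLC (-1.62). Against the untreated libraries of the digitonin experiment these signs were reversed, with 0.65 for Itga7, -0.27 for Col6a1, -1.19 for Loxl2 and 2.08 for Mmp3. The 20 mesenchymal genes had 14 higher and 5 lower, among them the transcription factor gene Zeb2 (1.13) and Vim (0.37), and of the 6 epithelial genes tested 4 were lower, among them Krt8 (-0.61), and 2 higher, among them Krt18 (0.39). Of 21 Hox genes 7 were higher and 6 lower, the higher ones including Hoxa10 (2.08) beside Hoxa11.

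Markers of other cell types were summed beside these lists, and their part in the results was not tested. The summed level of the 12 fibroblast markers was 406 and 401 TPM in MLKL LLC, against 414 and 403 TPM in parental LLC, and that of 12 macrophage and leukocyte markers was 25.8 and 25.6 TPM in MLKL LLC, against 26.7 and 27.4 TPM in parental LLC. Of the 12 fibroblast markers 6 reached 1 TPM in MLKL LLC and 5 in parental LLC, and of the 12 macrophage and leukocyte markers 2 did in each. Single markers moved both ways under these sums. Of the 6 fibroblast markers tested 3 were higher and 3 lower, beside 26.9% and 30.8% of all genes. Of the 2 macrophage and leukocyte markers tested, Cd68 was higher (0.88) and Cd14 lower (-0.36). Genes for small and ribosomal RNA made up between 0.729% and 2.36% of TPM in the libraries used here. The 2 groups compared differed in this share, with 0.733% and 0.729% in MLKL LLC and 1.54% and 1.39% in parental LLC.

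Set directly against GSDMD LLC, which carries an unrelated construct, 3666 genes were higher (32.8%) and 2951 lower (26.4%) of 11172 in MLKL LLC (59.2% in all). The largest differences included the actin-bundling gene Fscn1 (145 and 147 TPM in MLKL LLC and 3.95 and 4.01 TPM in GSDMD LLC, log2 fold change 4.88), Plac8, the lactate exporter gene Slc16a3 (31.0 and 32.1 TPM in MLKL LLC and 0.405 and 0.477 TPM in GSDMD LLC, 4.50) and Trim44 (11.6 and 11.5 TPM in MLKL LLC and 0 and 0 in GSDMD LLC, 3.65). Parental LLC held 209 and 198 TPM of Fscn1, 18.8 and 18.1 TPM of Slc16a3 and 19.8 and 20.6 TPM of Trim44. Gsdmd (-4.84) and Esr1 (-3.69) were the deepest of the lower genes, and the other construct holds part of each; another was the adaptor gene Grap2 (1.62 and 1.41 TPM in MLKL LLC and 13.9 and 13.9 TPM in GSDMD LLC, -2.57). When the untreated libraries of the digitonin experiment took the place of GSDMD LLC, 3234 genes were higher (28.9%) and 1795 lower (16%) of 11190 (44.9% in all), a split that became 2495 higher and 2628 lower after quantile normalization.

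The same construct was also compared in NIH3T3 fibroblasts. In NIH3T3, 2596 genes were higher (22.3%) and 3431 lower (29.4%) of 11655 with the undimerized construct (51.7% in all). Of 3390 genes called in both lines, 600 were higher in both, 899 lower in both and 1891 opposite. The sign was the same for 44.2% of these, near the 46.9% of all 10537 genes tested in both lines. The difference between the lines, tested as an interaction, passed for 6797 of 12400 genes (54.8%). For the cholesterol genes, all 22 were lower in NIH3T3 MLKL cells than in parental NIH3T3, with a median of -0.82, and all 22 passed the interaction in the direction of LLC, beside 27.8% of all genes. Hmgcs1 had 142 and 140.3 TPM in NIH3T3 MLKL cells and 297 and 277 TPM in parental NIH3T3 (-1.02 in NIH3T3).

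Ier3 and Ccl2 were among the genes that passed the interaction, as 54.8% of all genes did. As a list, the 25 immediate early genes tested for it had 10 larger and 10 smaller in LLC (median 0.0052). The 17 cytokine and chemokine genes had 10 larger and 4 smaller (median 0.73), beside 27.8% and 27% of all genes. Ier3 had 31.4 and 30.8 TPM in NIH3T3 MLKL cells and 69.2 and 69.9 TPM in parental NIH3T3 (-1.14 in NIH3T3; interaction 2.02, adjusted p 2.28e-06). Ccl2 had 136 and 139.5 TPM in NIH3T3 MLKL cells and 237 and 233 TPM in parental NIH3T3 (-0.76 in NIH3T3; interaction 1.14, adjusted p 1.22e-05). Rhox5 had 10.6 and 10.5 TPM in NIH3T3 MLKL cells and 317 and 306 TPM in parental NIH3T3 (-4.76 in NIH3T3), the opposite of its rise in LLC.

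Some genes passed the test in the same direction in both lines. By size in LLC, rises passing in both included Crabp1 (5.17 in LLC and 0.31 in NIH3T3), the imprinted gene Ndn (2.57 and 0.60), the tubulin gene Tubb2a (1.65 and 0.49), the transcription factor gene Sox4 (1.47 and 0.25) and the receptor adaptor gene Grb14 (1.37 and 1.05). Falls passing in both included Itga7 (-1.64 and -0.94), Mmp3 (-1.62 and -1.15), Ifitm3 (-1.15 and -0.77) and Tmsb4x (-1.51 and -0.49). Of the 27 X-linked genes lower in LLC, 21 were tested in NIH3T3, where 6 were lower and 9 higher. Armcx2 was among the higher ones, with 76.0 and 76.2 TPM in NIH3T3 MLKL cells and 48.2 and 48.4 TPM in parental NIH3T3.

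**Figure D5:**
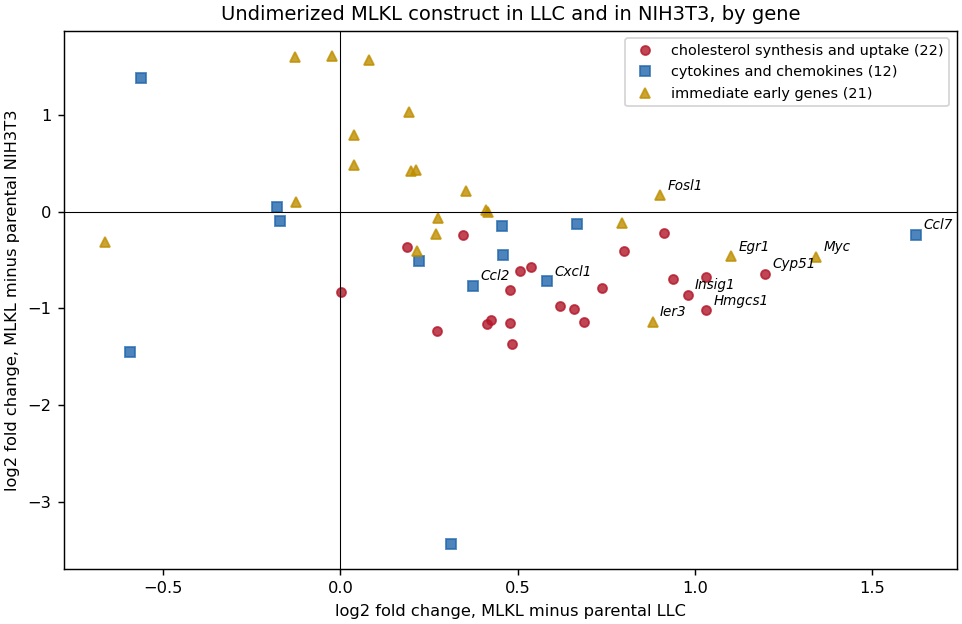
Log2 fold change with the undimerized MLKL construct in LLC (x axis) and in NIH3T3 (y axis) for genes of 3 lists tested in both lines, 1 point a gene. The 22 cholesterol genes all lie below 0 in NIH3T3, and 20 of them passed as higher in LLC.

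Whole chromosomes differed slightly in their typical change. The medians of the 19 autosomes in MLKL LLC against parental LLC ran from -0.21 on chromosome 6, where 285 of 524 genes were lower and 79 higher, to 0.12 on chromosome 18, where 43 of 271 were lower and 113 higher. Chromosome 2 followed chromosome 6, with 427 of 868 genes lower, 150 higher and a median of -0.17. Over all genes tested 26.9% were higher and 30.8% lower, with a median of -0.024. Against GSDMD LLC the extremes were other chromosomes, -0.11 on chromosome 18 and 0.17 on chromosome 19. In NIH3T3 they were -0.18 on chromosome 7 and 0.24 on chromosome 15. Against the untreated libraries of the digitonin experiment the medians were 0.095 on chromosome 6, 0.048 on chromosome 2 and -0.12 on chromosome 18, all reversed in sign. The median of all genes in that comparison was 0.055, so chromosome 2 lay near it. Copy number was not measured, and its part in these medians was not tested.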

How the data were processed

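Polyadenylated RNA of 4 LLC libraries was compared, with 12 more LLC libraries and 35 NIH3T3 libraries in the models. The authors deposited TPM per gene, made with Salmon and named with the build mm10, per the submitters' processing notes; no source used here gives the version, the index or how transcripts were summed, and the unit was taken from the values. TPM are shares of a library, so they keep no depth and give no counting error.

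From the deposited TPM, log2(TPM + 1) was fitted with limma 3.58.1 (trend) in R 4.3.3, with 1 mean per group over all 16 LLC libraries (35 for NIH3T3; the 8 libraries of both contrasts for the interaction), and p-values were adjusted over all genes tested (Benjamini-Hochberg). The fit was tested on simulated data. Positions came by symbol from GENCODE vM21 (mm10), for 94.6% of 19407 rows, and promoters from RefSeq (GRCm38.p6). Groups come from the labels; replicate numbers did not pair libraries.

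Named genes were the 20 largest rises and falls past the threshold, with both MLKL libraries beyond all 4 untreated libraries labelled without construct and 5 TPM in the higher group, up to 4 genes with the smallest p in each list, 10 response genes, the 6 largest differences each way for the interaction and for GSDMD LLC, and the 10 largest each way shared with NIH3T3; the text prints a selection, made after the values were seen. Hmgcs1, Mvk, Sc5d, the X-linked genes Rnf128, Amot, Esx1, Rp2 and Rps6ka6, and Y-linked genes were named after their values were seen. The members and lists were chosen with earlier results of these data known. Alternatives were a pseudocount of 0.1, quantile normalization, median centring, other filters, the 4 libraries alone, a replicate block, leaving out each library, removal of small RNA rows and other parental groups. Leaving out the digitonin experiment, parental LLC given 4OHT and removal of the trend with transcript length were added after seeing the data.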

Additional observations from a re-analysis of the deposited data

Results flagged for a closer look

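The difference between the construct's effect in LLC and in NIH3T3 was tested as an interaction (limma), with 3448 genes larger and 3349 smaller in LLC of 12400. Small RNA genes such as Mir1905 and Mir546 were also among the largest and are left out here. By size, the interaction log2 difference, LLC minus NIH3T3, was 6.18 for Rhox5, 5.55 for Plac8, 5.0 for Cox7b2, 4.88 for Gm12505 and 4.86 for Crabp1. On the other side it was -4.71 for Gchfr, -4.69 for Anxa8 and -4.08 for Armcx2. LLC barely expressed Cox7b2 and Anxa8, which averaged 0 and 0.302 TPM in MLKL LLC and 0 and 0.281 TPM in parental LLC. Their log2 fold changes in NIH3T3 were -5.0 and 4.71. Among the response genes it was 2.02 for Ier3, 1.56 for Egr1, 1.30 for Cxcl1, 1.14 for Ccl2 and 0.90 for Lif, while it was -0.17 for Nfkbia and -0.41 for Mlkl.

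The untreated libraries labelled with no construct in the digitonin experiment held construct-level transcripts. Gsdmd was 333 TPM and 337 TPM, and Esr1 32.7 TPM and 33.0 TPM, in its 2 libraries.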

How the results depend on the processing

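The choice of parental libraries mattered most, and the cause was not tested. With the untreated libraries of the digitonin experiment in place of parental LLC, 50 of the named genes tested had the same call and 16 lost it. Galnt18, Camkk1, Enah and Cenpa kept their sign but lost the call. Another 41 had the reverse sign, whether or not they were called there. Crabp1, Csf1, Ccl7, Col6a2, Ddx58 and Cox7a2 are examples of the 41 that were not called there. Against them the log2 fold change turned to -0.44 for Cxcl1, -0.25 for Ccl2, 0.32 for Nfkbia, 0.37 for Tmsb4x, -0.25 for Xist, -0.048 for Rhox5, -0.38 for Crabp1, -1.18 for Ndn, -0.25 for Tubb2a, -0.59 for Sox4, -1.06 for Grb14, 0.65 for Itga7, 2.08 for Mmp3 and 0.13 for Ifitm3. It also turned to -0.013 for Scd2, -0.19 for Fads2, -0.19 for Myc, -0.051 for Csf1, -0.19 for Ccl7, 1.24 for Aim2, -0.27 for Col6a1, -0.0080 for Col6a2, -1.19 for Loxl2, 0.31 for Ifi35, 0.028 for Ddx58, -0.51 for H2-K1, 0.12 for Tapbp and 0.025 for Ndufa4. Further values were 0.14 for Ndufs3, 0.070 for Cox7a2, 0.14 for Sdhd, -0.20 for Txnip, 1.48 for Nqo1, 0.15 for Prdx1, -0.30 for Hoxa10, -0.23 for Zeb2, 0.79 for Krt8, 5.46 for Fscn1, 3.65 for Trim44, -2.55 for Grap2 and -1.34 for Esx1. The medians reversed to 0.048 on chromosome 2, 0.095 on chromosome 6 and -0.12 on chromosome 18, beside 0.055 over all genes. With the mean of both groups labelled with no construct, the reversed values were 0.0084 for Nfkbia, 0.23 for Mmp3, 0.45 for Aim2, 0.31 for Nqo1, 0.092 for Krt8, 2.49 for Fscn1, 1.45 for Trim44 and -0.62 for Grap2, and -0.0028 for the median of chromosome 18. The 27 X-linked genes at least 2-fold lower became 1 with the libraries of the digitonin experiment, 8 with the mean of both and 11 with a filter of 5 TPM.

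Under the other alternatives run, each called gene named and tested kept its direction and call. Mvk, which was not called, passed under 4 of these alternatives, and Sc5d, which was not called, changed sign with parental LLC given 4OHT (-0.12), without small and ribosomal RNA (-0.0091), and when single libraries were left out (-0.014 to 0.017). Leaving out each library gave 5268 to 5627 calls in LLC, 3641 to 4703 against the libraries of the digitonin experiment, 5487 to 5766 against GSDMD LLC, 4885 to 5258 in NIH3T3 and 5665 to 6359 for the interaction. Replicate numbers did not pair the libraries: the correlation of deviations was 0.032 between MLKL and parental LLC, -0.043 between MLKL and GSDMD LLC and -0.0018 in NIH3T3. With the replicate number as a block there were 6271 calls in LLC, 6437 against GSDMD LLC and 6011 in NIH3T3. TPM hold no depth, so counting error is unknown, and 2 libraries a group limit the precision.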
